A study of Mus musculus with 38 samples.

Results

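*Jdp2*, *Glis1*, *Esrrb* and *Sall4* are the 4 transcription factors that were delivered to mouse embryonic fibroblasts (MEFs) as the JGES set, and their rows were read from all 3 expression tables of the study. They are 4 of the 35976 genes in the FPKM table of the time courses, 4 of the 37108 genes in the FPKM table of the factor sets, and 4 of the 20695 genes in the table of single cells. The members were chosen by name as the delivered genes and not by their values. Delivery itself raises the level of a factor, so a high level in a library that received the factor is a property of the design and is described here without a test. RNA of the vector, where it was mapped, and RNA of the cell's own gene share one row and cannot be told apart, and in bulk libraries fewer cells carrying a factor and less RNA per cell cannot be told apart either.

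*Jdp2* encodes a basic leucine zipper protein of the AP-1 family that acts mostly as a repressor at AP-1 and cyclic AMP response sites. *Glis1* encodes a Krüppel-like zinc finger protein related to the GLI factors, abundant in oocytes and able to assist reprogramming. *Esrrb* encodes an orphan nuclear receptor that binds extended half-sites and takes part in the self-renewal network of pluripotent cells. *Sall4* encodes a zinc finger protein that binds AT-rich DNA and is active in pluripotent cells and in the extraembryonic endoderm. Its first residues recruit the nucleosome remodelling and deacetylase complex NuRD, which closes and silences chromatin. BMP4 is a secreted ligand that signals through SMAD proteins and takes part in early lineage choice.

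The MEFs were taken at E13.5 from crosses of *Oct4*-GFP (OG2) mice with 129S4/SvJaeJ mice, so all reprogrammed cells carry that reporter transgene. Genes were carried by pMXs retroviruses over 2 days, after which cells were kept in the medium iCD3, which holds vitamin C, mLIF, bFGF, CHIR99021, SGC0946, an LSD1 inhibitor and Y27632, with BMP4 at 10 ng/ml (BMP4+) or without it (BMP4-). JGES cells were sampled at day 0 and, with and without BMP4, at days 1, 3, 5 and 7, while the sets JGE, JGEO and JGESO, in which O is *Oct4* (*Pou5f1*), were sampled at day 7 only. SALL4-WT and SALL4-delN12, which lacks the 12 N-terminal residues, were delivered alone without BMP4 and sampled at days 1, 5, 9 and 11. Each condition had 1 bulk RNA-seq library (23 in all), and the JGES libraries of day 7 stand in both tables. Single-cell RNA-seq covered JGES cells of day 7 in 1 BMP4+ and 1 BMP4- sample. ATAC-seq covered MEFs and the 8 SALL4 conditions, and CUT&Tag of SALL4 and of the active mark H3K27ac covered both SALL4 forms at day 6. The labels do not say whether the libraries came from separate cultures.

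With 1 sample per condition no difference has a replicate check and no p-value is given. Differences between bulk libraries are on the log2(FPKM + 1) scale, which understates the change of low genes, and a gene is counted as past 2-fold where that difference is at least 1 in size. The share of all tested genes past 2-fold is given beside the members. Read numbers behind the FPKM values are unknown. The single-cell samples held 11335 BMP4+ cells with a median of 21205 UMIs and 8685 BMP4- cells with a median of 12738 UMIs. Sums of UMIs are given in CPM, scaled to the total of the same cells, and a difference in single cells is counted as past 2-fold on the log2(CPM + 1) scale. CPM carry exact Poisson 95% intervals, and shares of cells exact Clopper-Pearson 95% intervals. Both kinds of interval cover counting error only.

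The stretches of genome on which the chromatin data below bear are shown first, read from RefSeq tables and the genome of build GRCm38.p6, the assembly that mm10 stands for. Gene models, start sites of peaks and the transcript name Sall4-201 are those of GENCODE vM21. The first 72 coding bases of *Sall4* (transcript Sall4-201, chr2:168766958-168767029, minus strand) hold in capitals the 12 codons of the N-terminal residues that SALL4-delN12 lacks. In the others, capitals mark CpG dinucleotides. They are promoters, from 250 bases before to 50 after an annotated start, that lay under ATAC-seq peaks at *Jdp2* (chr12:85598855-85599154), *Glis1* (chr4:107434469-107434768) and the second start of *Esrrb* (chr12:86421394-86421693). The last is a 262-base stretch inside *Esrrb* (chr12:86473643-86473904) that all 8 ATAC-seq lists of SALL4 cells share. These 4 are on the plus strand. Further *Jdp2* promoters (chr12:85599166-85599465 and chr12:85599768-85600067) lay under an ATAC-seq peak of MEFs and are not printed.
Sall4 first codons: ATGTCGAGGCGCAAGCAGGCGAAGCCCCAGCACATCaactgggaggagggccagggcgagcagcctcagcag
Jdp2 promoter: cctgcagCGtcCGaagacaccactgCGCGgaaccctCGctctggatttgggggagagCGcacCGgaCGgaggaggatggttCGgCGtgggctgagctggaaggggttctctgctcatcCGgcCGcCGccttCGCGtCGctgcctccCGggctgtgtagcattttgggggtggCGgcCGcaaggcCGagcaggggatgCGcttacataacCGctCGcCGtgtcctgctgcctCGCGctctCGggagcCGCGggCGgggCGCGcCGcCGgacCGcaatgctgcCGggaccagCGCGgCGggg
Glis1 promoter: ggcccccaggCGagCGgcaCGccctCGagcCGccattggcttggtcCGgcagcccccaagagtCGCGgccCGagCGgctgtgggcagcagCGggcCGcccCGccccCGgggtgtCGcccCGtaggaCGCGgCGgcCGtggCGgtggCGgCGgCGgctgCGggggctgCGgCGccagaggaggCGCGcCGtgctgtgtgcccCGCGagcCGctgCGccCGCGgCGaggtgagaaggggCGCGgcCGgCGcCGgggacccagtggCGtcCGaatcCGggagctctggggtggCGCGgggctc
Esrrb second promoter: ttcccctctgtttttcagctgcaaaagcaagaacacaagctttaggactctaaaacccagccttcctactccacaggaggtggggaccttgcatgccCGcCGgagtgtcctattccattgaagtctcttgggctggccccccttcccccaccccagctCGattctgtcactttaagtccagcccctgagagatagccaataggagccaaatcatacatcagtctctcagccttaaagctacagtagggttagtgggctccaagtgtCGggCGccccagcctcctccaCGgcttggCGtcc
Esrrb shared stretch: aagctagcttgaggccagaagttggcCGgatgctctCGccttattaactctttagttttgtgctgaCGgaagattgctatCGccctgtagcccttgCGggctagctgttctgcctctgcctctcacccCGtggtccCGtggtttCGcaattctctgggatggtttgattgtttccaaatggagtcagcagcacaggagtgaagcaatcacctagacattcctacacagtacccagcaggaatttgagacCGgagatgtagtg

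The promoters differed in composition. The *Glis1* promoter held 47 CpGs at 81.3% GC and the *Jdp2* promoter 39 CpGs at 71.7% GC, while the second *Esrrb* promoter held 7 CpGs at 55.3% GC, the median number among the 32851 promoters of the table. The shared stretch in *Esrrb* held 9 CpGs at 51.5% GC. Letters of 5 motifs were searched on both strands: TGACTCA (an AP-1 site), TGACGTCA (a cyclic AMP response site, which does not contain the former), TCAAGGTCA (an estrogen-related receptor site), GACCACCCA (a GLI or GLIS site) and AATATT (an AT-rich site of SALL4). Of all promoters of 300 bases, 5.20%, 1.79%, 0.423%, 0.253% and 6.81% held them in that order. None of these letters occurred in the 6 promoters of 3 members in the table or in the *Esrrb* stretch, which says only that these letters are not in these windows.

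The first question was how the delivered factors were expressed along JGES reprogramming and whether BMP4 changed it. *Jdp2*, *Esrrb* and *Sall4* were among the most abundant transcripts at every day, and *Glis1* was close to 0 throughout. *Jdp2* had FPKM values of 375, 947, 740, 309 and 234 at days 0, 1, 3, 5 and 7 without BMP4, and of 762, 652, 329 and 259 at days 1, 3, 5 and 7 with BMP4. It was highest at day 1 in both arms and lowest at day 7, and it ranked between 49 and 231 among all genes of a library. *Esrrb* had 240.4, 480, 406, 192 and 171 FPKM without BMP4 and 348, 312, 173 and 128 with BMP4. It followed the same order of days as *Jdp2* in both arms and ranked between 120 and 411.

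*Sall4* had 650.4, 712, 662, 334 and 279.6 FPKM without BMP4 and 468, 459.9, 266 and 194 with BMP4. It was already near its highest level at day 0, and its values with BMP4 were below those without at each of the 4 days. *Glis1* had 0.450, 0.174, 0.278, 0.0844 and 0 FPKM without BMP4 and 0.7499, 0.287, 0.843 and 1.13 with BMP4. Its row was thus below 1 FPKM in 8 of the 9 JGES libraries although the gene was delivered, and whether reads of its vector were mapped to this row cannot be settled from the processed values. The row ranked between 13268 and 20539 over all bulk libraries. Over the 9 JGES libraries the lowest, median and highest FPKM were 234, 375 and 947 for *Jdp2*, 128, 240.4 and 480 for *Esrrb*, 194, 459.9 and 712 for *Sall4*, and 0, 0.287 and 1.13 for *Glis1*.

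**Figure D1:**
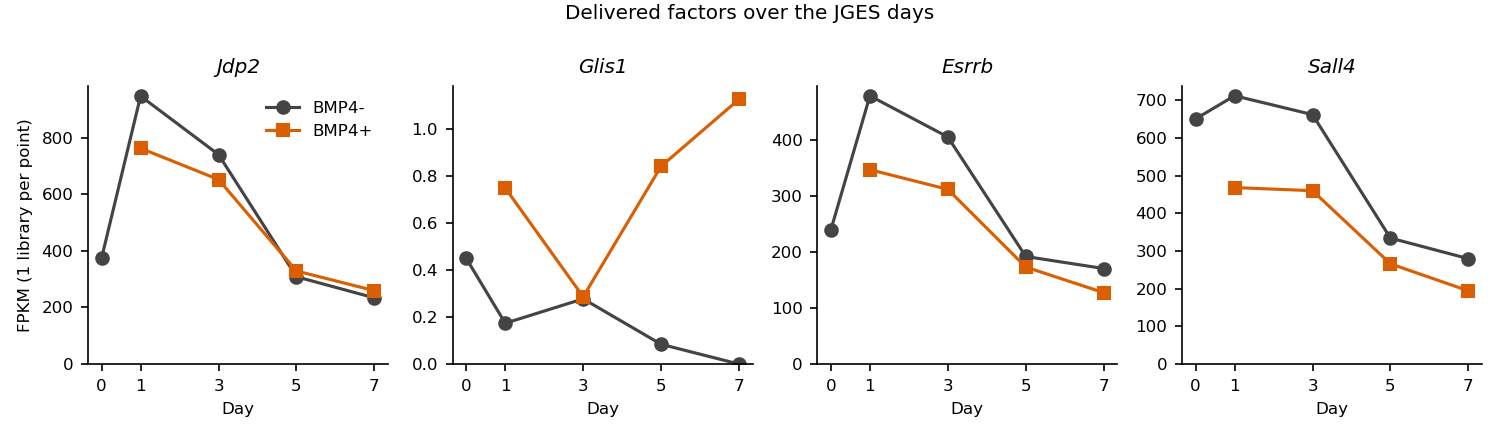
FPKM of the 4 delivered factors (1 panel each) against day of JGES reprogramming, with BMP4+ and BMP4- cells as separate lines and 1 library per point. *Jdp2* and *Esrrb* were highest at day 1 in both arms, *Sall4* was lower with BMP4 at each day, and *Glis1* did not exceed 1.13 FPKM.

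Against the shared library of day 0, which both arms use, *Jdp2* was past 2-fold higher at day 1 in both arms, with log2 differences of 1.33 without BMP4 and 1.02 with it. It was the 1 member of 4 higher in each of these comparisons, where 11.8% and 9.78% of all tested genes were higher by that much. *Esrrb* missed the mark at day 1, with 0.99 without BMP4 and 0.53 with it. *Sall4* was lower than at day 0 by the end of the course, with log2 differences of -0.96 at day 5 and -1.21 at day 7 without BMP4, and of -1.29 at day 5 and -1.74 at day 7 with BMP4. It was the 1 member past 2-fold lower at day 7 in both arms and at day 5 with BMP4, beside 10.4%, 9.47% and 9.85% of all tested genes. At day 7 *Jdp2* stood at -0.68 and -0.53 and *Esrrb* at -0.49 and -0.91 relative to day 0, without and with BMP4. At day 3 the members were between -0.50 and 0.98 in both arms, so 0 of 4 were past 2-fold, beside 26.9% of genes without and 23.7% with BMP4. At day 5 without BMP4, 0 of 4 were, beside 30.3% of genes, although *Sall4* became -1.14 with libraries scaled to one median ratio.

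Between BMP4+ and BMP4- libraries of the same day, 0 of 4 members differed 2-fold at days 1, 3 and 5, when 9.48%, 15.8% and 22.0% of all tested genes did. *Sall4* had log2 differences (BMP4+ minus BMP4-) of -0.60, -0.52, -0.33 and -0.52 at days 1, 3, 5 and 7. *Esrrb* had -0.46, -0.38, -0.15 and -0.42. Both were thus lower with BMP4 at all 4 days as deposited, each time by less than 2-fold. With libraries scaled to one median ratio *Sall4* remained lower at each day (-0.14 at day 5), while *Esrrb* turned at day 5, to 0.04. *Jdp2* changed side, from -0.31 and -0.18 at days 1 and 3 to 0.09 and 0.15 at days 5 and 7. *Glis1* was the 1 member past 2-fold at day 7, where 24.1% of genes were (10.3% higher with BMP4), and this rests on 1.13 FPKM against a value listed at 0.

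The comparison of factor sets at day 7 asked how each factor behaved when *Sall4* was left out or *Oct4* was added. *Sall4* had 2.09 FPKM in JGE BMP4- and 6.23 in JGE BMP4+, the sets that did not receive it, which is the background of the cells' own gene. It had 28.9 and 30.3 FPKM in JGEO, 174 and 213 in JGESO, and 273 and 189.96 in JGES, in each case without and with BMP4. The order JGE, JGEO, JGESO held in both arms, and JGES was the highest set without BMP4 but below JGESO with it. Between JGE and JGEO, neither of which received *Sall4*, its FPKM differed 13.9-fold without BMP4 and 4.87-fold with it (log2 differences 3.28 and 2.12). It was the 1 member of 4 past 2-fold higher in JGEO, where 10.2% and 7.54% of all tested genes were.

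*Jdp2* had 1722 and 1499 FPKM in JGE, 1290.1 and 1513 in JGEO, 319.7 and 541 in JGESO and 228 and 254 in JGES, without and with BMP4. It ranked between 14 and 35 among all genes in the sets without *Sall4*. *Esrrb* had 561 and 369 FPKM in JGE, 384 and 486 in JGEO, 109 and 134 in JGESO and 167 and 125 in JGES. Both genes were thus lower in JGES than in JGE and in JGESO than in JGEO, which is set beside the share of all genes below. *Glis1* stayed between 0 and 1.10 FPKM in the 8 libraries of this table.

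**Figure D2:**
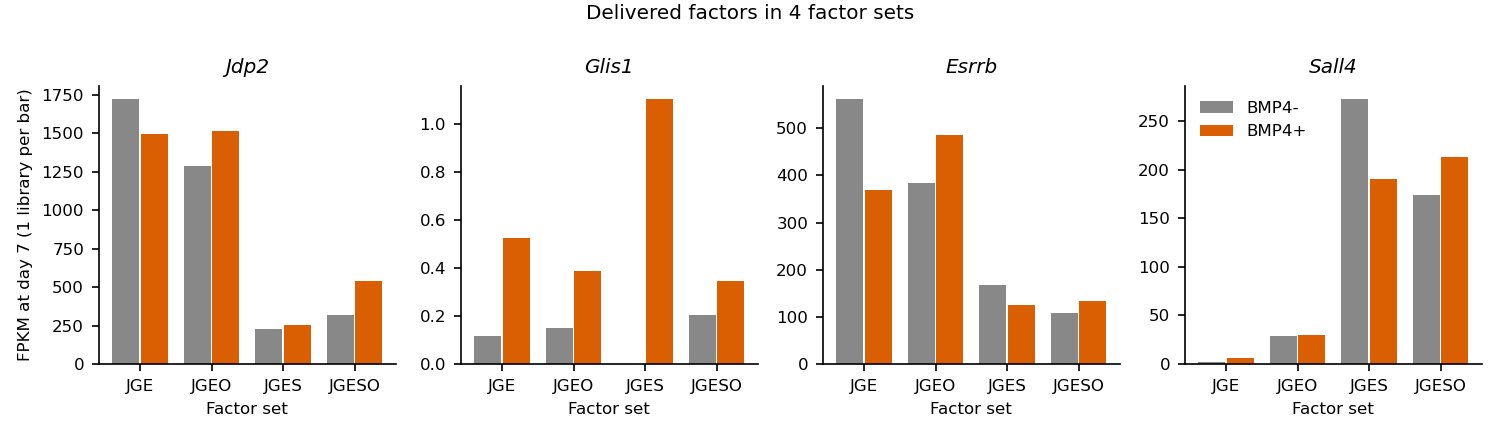
Bars of FPKM at day 7 for the 4 factors in the sets JGE, JGEO, JGESO and JGES, with and without BMP4 (1 library per bar). *Jdp2* and *Esrrb* were lower in JGES than in JGE and in JGESO than in JGEO, with and without BMP4, and *Sall4* was lowest in JGE.

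In numbers, *Jdp2* was 7.55-fold lower in JGES than in JGE without BMP4 and 5.91-fold lower with BMP4, and 4.04-fold and 2.79-fold lower in JGESO than in JGEO. *Esrrb* was 3.37-fold, 2.96-fold, 3.53-fold and 3.62-fold lower in the same 4 comparisons. In each of them these 2 of the 4 members were past 2-fold lower, beside 16.9%, 11.1%, 20.7% and 21.2% of all tested genes. *Jdp2* and *Esrrb* were among 247 of 13014 genes (1.90%) that were lower in all 4 comparisons, which share no library. The retroviruses were mixed before infection, and the amount of each virus in the sets other than JGES is not given in the sources used here. The dose of a factor and the presence of *Sall4* therefore cannot be told apart in these values. The JGES libraries are those of the time course, and the labels do not say whether they were made together with the other sets. In comparisons of JGES with JGE or JGESO, the set and any difference between these groups of libraries cannot be told apart either. Adding *Oct4* to JGES gave log2 differences of 0.49 and 1.09 for *Jdp2*, -0.61 and 0.11 for *Esrrb* and -0.64 and 0.16 for *Sall4*, without and with BMP4. *Jdp2* with BMP4 was the 1 member past 2-fold higher there (0.95 with libraries scaled to one median ratio), where 14.0% of genes were, and 0 of 4 were without BMP4, where 49.5% of genes were past 2-fold in either direction.

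*Pou5f1*, the O of the sets, checked the labels. It was listed at 0 FPKM in JGE BMP4- and at 0.097 in JGE BMP4+, at 1570 and 1599 in JGEO, and at 370 and 449 in JGESO. JGES cells received no *Oct4*, and their row held 224 FPKM without BMP4 and 5.94 with BMP4 in this table. Along the JGES course it had 0.93, 9.004, 50.1, 170 and 230 FPKM at days 0, 1, 3, 5 and 7 without BMP4, against 3.39, 0.989, 2.66 and 6.08 at days 1 to 7 with it. The cells' own *Pou5f1* thus had its highest value at day 7 without BMP4, when *Sall4*, *Esrrb* and *Jdp2* had their lowest of that arm.

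The response to BMP4 within a set also differed by member. *Sall4* was 2.99-fold higher with BMP4 in JGE, from 2.09 to 6.23 FPKM (log2 difference 1.23), and it was the 1 member past 2-fold there beside 9.06% of all tested genes (4.28% higher). In JGEO the 4 members were between 0.07 and 0.34 and in JGESO between 0.16 and 0.76, so 0 of 4 were past 2-fold, beside 4.21% and 8.81% of genes. *Esrrb* was lower with BMP4 in JGE (-0.60) and higher in JGEO (0.34) and JGESO (0.30). *Jdp2* had -0.20, 0.23 and 0.76 in the same order.

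The comparison of the SALL4 forms asked what the NuRD-recruiting residues change when SALL4 acts alone. *Sall4* itself was abundant in all 8 libraries, with 549, 491, 518 and 290.3 FPKM at days 1, 5, 9 and 11 for SALL4-WT and 809, 623, 971 and 428 for SALL4-delN12. It was higher in SALL4-delN12 at all 4 days, by 1.47-fold, 1.27-fold, 1.87-fold and 1.47-fold, so the groups compared differ in the level of the delivered gene as well as in its form. It ranked between 47 and 214 in these libraries. *Esrrb* was not delivered here, and its values are those of the cells' own gene. It had 0.025, 1.85, 1.82 and 2.00 FPKM in SALL4-WT cells and 1.46, 21.0, 15.5 and 6.49 FPKM in SALL4-delN12 cells.

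**Figure D3:**
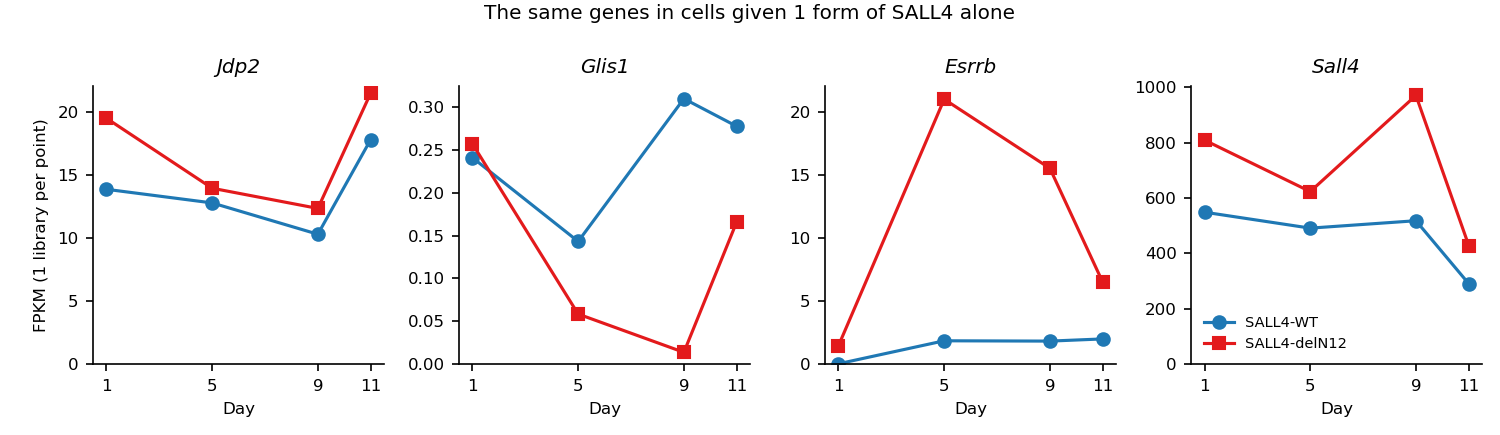
FPKM of the 4 factors on days 1, 5, 9 and 11 in cells given one SALL4 form and no other factor (1 library per point). *Esrrb* was above the SALL4-WT value at each day and highest at day 5 with 21.0 FPKM, while *Sall4* was 1.27-fold to 1.87-fold higher in SALL4-delN12.

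*Esrrb* was higher in SALL4-delN12 at every day, with log2 differences of 1.26, 2.95, 2.55 and 1.32, that is 11.4-fold at day 5, 8.52-fold at day 9 and 3.25-fold at day 11. It was the 1 member of 4 past 2-fold at each day, beside 4.18%, 4.67%, 6.09% and 6.55% of all tested genes that were higher. Genes higher by that much at all 4 days numbered 131 of 12050 (1.09%), and *Esrrb* was one of them. At day 1 *Esrrb* passed the 1 FPKM filter through SALL4-delN12 alone, at 1.46 against 0.025 FPKM, so that call rests on low values. Its highest value, 21.0 FPKM, was below the lowest JGES value of 128, in cells that received the gene by virus. *Jdp2*, also not delivered to these cells, had 13.9, 12.8, 10.3 and 17.8 FPKM with SALL4-WT and 19.5, 14.0, 12.4 and 21.5 with SALL4-delN12. These values were higher in SALL4-delN12 at all 4 days by log2 differences of 0.46, 0.12, 0.24 and 0.26, none of them past 2-fold. *Glis1* had 0.241, 0.143, 0.310 and 0.278 FPKM with SALL4-WT and 0.257, 0.0584, 0.0137 and 0.166 with SALL4-delN12, and so gave no level to compare.

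ATAC-seq and CUT&Tag peaks were placed on the 4 loci, given here with the coordinates of mm10. *Sall4* (ENSMUSG00000027547, minus strand) lies at chr2:168748332-168767943, *Glis1* (ENSMUSG00000034762, plus strand) at chr4:107434591-107635061, *Jdp2* (ENSMUSG00000034271, plus strand) at chr12:85599027-85639878 and *Esrrb* (ENSMUSG00000021255, plus strand) at chr12:86361117-86521628. Each of the 13 peak lists gives a score per peak that rises as the caller's p-value falls. CUT&Tag replicates had been merged before peaks were called, so their spread cannot be seen.

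At *Sall4* most peaks of the cells that received it lay on coding exons. The MEF list had 0 peaks at the gene. In the 8 ATAC-seq lists of SALL4 cells the peaks covered 98.4%, 90.4%, 87.4% and 91.1% of its coding bases at days 1, 5, 9 and 11 of SALL4-delN12, and 89.4%, 87.8%, 89.2% and 89.7% for SALL4-WT. In the same lists 0.852% to 1.78% of all 21951 coding genes had 50% or more of their coding bases under peaks, and 1.95% in the MEF list. The 4 CUT&Tag lists, against SALL4 and against H3K27ac alike, covered 86.2% to 86.7% of the *Sall4* coding bases. There the share of genes covered to 50% was 1.49% and 2.63% for SALL4 (SALL4-delN12 and SALL4-WT) and 5.77% and 4.10% for H3K27ac.

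The edges of the peaks on the longer exons followed those exons. Exon 2, at chr2:168754434-168756800 with 2367 coding bases, had in each of the 8 ATAC-seq lists a peak that began within 19 bases and ended within 79 bases of the exon's own ends. Its scores were 3100, 1427, 1340.3 and 742 at days 1, 5, 9 and 11 of SALL4-delN12 and 2962, 1746, 1010.4 and 775 for SALL4-WT, and 272 and 1283 for SALL4 and 1008 and 1467 for H3K27ac (SALL4-delN12 and SALL4-WT) in CUT&Tag. Exon 4 with 429 coding bases had a peak in all 12 lists of SALL4 cells, with ATAC-seq edges within 16 bases of its start and 78 bases of its end, and exon 3 with 287 bases in the day 1 list of SALL4-delN12 alone (score 99.6). Exon 1 with 118 bases, which holds the codons printed above, had a peak in 7 of the 8 ATAC-seq lists. In 5 of the 8 a further peak lay off these exons, within 30 bases of an annotated start at chr2:168765246 whose short coding exon belongs to another transcript. Its scores were 53.5, 67.4 and 182 at days 5, 9 and 11 of SALL4-delN12 and 70.1 and 78.8 at days 5 and 11 of SALL4-WT, and each of these peaks was mostly outside coding sequence. Whether the reads at the exons came from the vector or from the chromosome was not tested, and peaks on the exons were therefore not read as an open chromatin state or as binding. None of the other 3 members, which these cells did not receive, was covered over more than 41.1% (*Jdp2*), 21.1% (*Esrrb*) or 10.8% (*Glis1*) of its coding bases in any list.

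**Figure D4:**
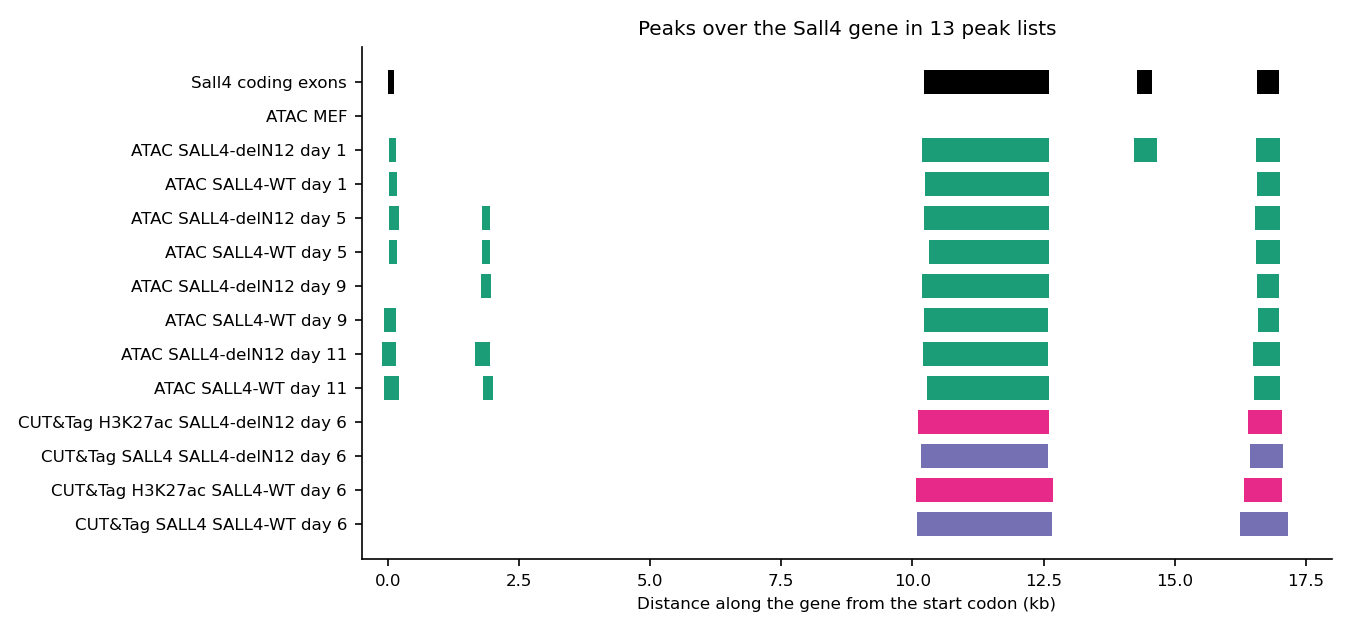
Peaks over *Sall4* in the 13 peak lists, drawn as bars by distance in kb from the start codon, with ATAC-seq in green, SALL4 CUT&Tag in purple, H3K27ac CUT&Tag in pink and the 4 coding exons of Sall4-201 in black. The MEF list has 0 peaks, each of the 12 lists of SALL4 cells has a peak on exon 2 and on exon 4, and 5 ATAC-seq lists have a peak between the exons at another annotated start.

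At *Esrrb* the lists of the SALL4 forms differed in H3K27ac. A MEF ATAC-seq peak of score 94.2 (chr12:86473681-86473887) lay inside the 262-base stretch printed above. The peak over the stretch had scores of 312, 599.95, 593 and 518 at days 1, 5, 9 and 11 of SALL4-delN12 and of 145, 617, 526 and 667 for SALL4-WT. The stretch was chosen as one with a peak in all 8 lists of SALL4 cells, so scores above that of MEFs follow in part from the choice. Neither form had the higher score at every day. SALL4 CUT&Tag had a peak over it in both forms, with a score of 329 for SALL4-delN12 (chr12:86472771-86475609) and 275 for SALL4-WT (chr12:86473247-86475187). H3K27ac had a peak there in SALL4-delN12 alone, with a score of 316 (chr12:86472598-86475791).

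Across the whole of *Esrrb*, H3K27ac had 8 peaks in SALL4-delN12 cells and 0 in SALL4-WT cells. The SALL4-WT list of this mark was also the smaller one, with 19841 peaks against 45599, and 52.9% against 63.9% of all 21866 coding genes considered had a peak. At the second annotated start of *Esrrb*, MEFs had an ATAC-seq peak of score 295. SALL4-WT cells had scores of 51.7, 161, 133 and 162 there at days 1, 5, 9 and 11, and SALL4-delN12 cells had no peak at day 1 and scores of 155, 203 and 116 after it. Of the 2 H3K27ac lists, that of SALL4-delN12 had a peak at this start (score 146, chr12:86421303-86422883). The RNA difference of 11.4-fold at day 5 therefore stood beside similar ATAC-seq scores in both forms at the start (155 and 161) and at the shared stretch (599.95 and 617).

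*Jdp2* and *Glis1* had peaks at their CpG-rich starts in MEFs. The *Jdp2* start had a score of 1227 in MEFs (chr12:85598495-85600181), of 362, 317, 325 and 474 at days 1, 5, 9 and 11 of SALL4-delN12, and of 78.1, 786, 399.9 and 818 for SALL4-WT. All 8 were below the MEF score, and the SALL4-WT scores were the higher ones from day 5 on, while the FPKM of *Jdp2* were slightly higher in SALL4-delN12. The *Glis1* start had a score of 953 in MEFs, of 581, 406 and 509.6 at days 5, 9 and 11 of SALL4-WT and of 104, 172 and 216 at days 1, 9 and 11 of SALL4-delN12. No peak covered it in SALL4-WT at day 1 or SALL4-delN12 at day 5, where the highest score nearby was 73.7 and 88.1. Peaks within 2 kb of it were present in all lists, although its FPKM never exceeded 0.310 in these cells. Scores move with the depth of a list as well as with the signal at a site, and the reads behind the lists are unknown.

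Single cells of JGES day 7 showed where the factors were expressed. The deposited cell types were endothelial cells, intermediate state, ParE and placenta-like cells in the BMP4+ sample (1453, 7125, 2372 and 385 cells), and endothelial cells, intermediate state, ParE and pluripotent cells in the BMP4- sample (507, 6211, 142 and 1825 cells). Markers went with the names. The pluripotent cells had 7316 CPM over 6 pluripotency markers (6305 from *Dppa5a*), ParE had 1321 (BMP4+) and 967 (BMP4-) over 6 primitive endoderm markers, endothelial cells 877 and 517 over 6 endothelial markers, and placenta-like cells 2864 over 6 placental markers. ParE can be read as parietal endoderm, but the study names primitive-endoderm-like cells (PrECLCs) beside the other types of BMP4+ cells, and ParE held the primitive endoderm markers. The deposited name is kept. The small BMP4- ParE class also held 898 CPM of the pluripotency markers (809 from *Dppa5a*), against 188 in BMP4+ ParE (165 from *Tdh*). These sums thus rest mostly on different genes. ParE held placental markers as well, 918 CPM with and 470 without BMP4 (538 and 351 from *Krt18*). Intermediate cells were mixed by these lists. With BMP4 they held 815 CPM of the fibroblast, 496 of the placental and 89.3 of the pluripotency markers, and without BMP4 171, 146 and 379. Of the pluripotency sums, 70.0 came from *Tdh* with BMP4 and 261 from *Dppa5a* without it.

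*Sall4* was highest in ParE, at 149 CPM (146 to 152) in BMP4+ and 86.8 (74.0 to 101) in BMP4- cells. In BMP4+ cells it was followed by placenta-like cells with 48.0 (44.1 to 52.1), endothelial cells with 32.8 (30.96 to 34.8) and intermediate cells with 25.7 (24.96 to 26.5). In BMP4- cells it was followed by pluripotent cells with 60.5 (57.8 to 63.4), intermediate cells with 22.8 (21.8 to 23.8) and endothelial cells with 15.2 (12.7 to 18.1). No intervals of neighbours overlapped in either order. With cells assigned by 3 of 6 markers instead, placenta-like cells had 28.9 CPM (27.5 to 30.4) and endothelial cells 33.2 (30.7 to 35.8), so that part of the order turned, and ParE remained highest at 145 and 63.5 with and without BMP4.

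*Jdp2* had a different order. It was highest in BMP4+ intermediate cells at 117.5 CPM (116 to 119), followed by endothelial cells at 68.0 (65.3 to 70.8), and it was lower in placenta-like cells at 17.1 (14.8 to 19.6) and ParE at 15.7 (14.7 to 16.7), whose intervals overlap. In BMP4- cells it was 13.3 (10.95 to 16.0) in endothelial, 9.65 (8.998 to 10.3) in intermediate, 3.17 (1.165 to 6.91) in ParE and 2.999 (2.41 to 3.69) in pluripotent cells. By the deposited types the intermediate and endothelial classes were thus the ones richest in *Jdp2* in both samples. This did not hold for all types under another naming. Where cells were assigned by 3 of 6 markers, 1958 BMP4+ cells fell in the placenta-like class and had 80.5 CPM (78.2 to 82.9) of *Jdp2*, beside 76.6 (72.8 to 80.5) in endothelial cells.

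*Esrrb* was highest in the pluripotent cells, whose own network it belongs to, at 35.6 CPM (33.5 to 37.8). With types set by 3 of 6 markers these had 25.3 CPM, beside 25.6 in BMP4+ endothelial cells. ParE, endothelial and intermediate cells of the same sample had 11.6 (7.29 to 17.6), 9.14 (7.22 to 11.4) and 7.66 (7.08 to 8.28), with overlapping intervals between neighbours. In BMP4+ cells it was 23.9 (23.2 to 24.7) in intermediate and 21.7 (20.2 to 23.3) in endothelial cells, whose intervals just overlap, and 3.79 (2.76 to 5.07) and 2.995 (2.58 to 3.46) in placenta-like cells and ParE. *Glis1* was near 0 in all classes, from 0.487 in endothelial to 2.36 (1.57 to 3.41) in placenta-like BMP4+ cells and from 0 to 0.637 in BMP4- cells. The 142 BMP4- ParE cells held 0 UMIs of it, with an exact interval of 0 to 1.95 CPM and a floor of 1.59 CPM at 3 counts.

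**Figure D5:**
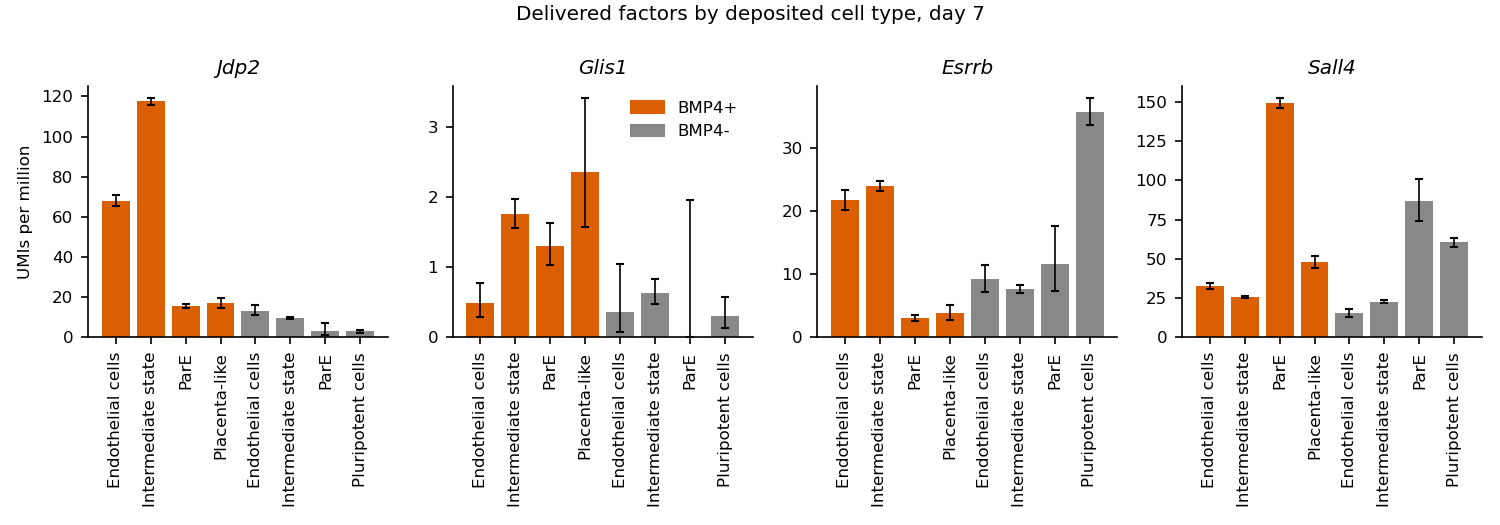
CPM of the 4 factors by deposited cell type in the BMP4+ (orange) and BMP4- (grey) samples of JGES day 7, with exact Poisson 95% intervals as error bars that cover counting error only. *Jdp2* was highest in BMP4+ intermediate cells, *Sall4* in ParE of both samples, and *Esrrb* in the pluripotent cells.

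Between the samples, *Jdp2* was the member that differed most. Over all cells it had 83.4 CPM (82.3 to 84.5) with BMP4 and 8.20 (7.70 to 8.72) without, a 10.2-fold difference (log2 3.20). *Sall4* had 55.8 (54.9 to 56.7) and 32.3 (31.3 to 33.4), *Esrrb* 17.98 (17.5 to 18.5) and 14.6 (13.9 to 15.2), and *Glis1* 1.51 (1.37 to 1.67) and 0.528 (0.407 to 0.673), with log2 differences of 0.77, 0.29 and 0.72. The median of all tested genes was itself 0.47 higher in the BMP4+ sample. Mitochondrial and ribosomal protein genes held 26.8% of all UMIs with BMP4 and 44.8% without, and with CPM taken without them the median of the other genes was 0.09. On that scale *Jdp2* differed by 2.86 and *Sall4* by 0.38, and *Esrrb* turned, with 24.6 CPM with BMP4 and 26.4 without. *Jdp2* was the 1 member of 4 past 2-fold higher over all cells on the log2(CPM + 1) scale, beside 23.8% of all tested genes. *Glis1* differed 2.86-fold in CPM as such, at levels where that scale understates a change.

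Within cell types the pattern depended on the class. In the intermediate class the fibroblast, placental and pluripotency markers given above also differed between the samples, and their part in its values was not tested. In intermediate cells *Jdp2* was 12.2-fold and *Esrrb* 3.13-fold higher with BMP4, so 2 of 4 members were past 2-fold on the log2(CPM + 1) scale beside 23.6% of genes. *Glis1* was 2.75-fold higher in CPM but not past the mark on that scale. *Sall4* differed by 0.17, and by -0.23 without mitochondrial and ribosomal genes (35.6 against 41.8 CPM), so its direction depends on the scaling. In endothelial cells *Jdp2* was 5.11-fold, *Esrrb* 2.37-fold and *Sall4* 2.16-fold higher, 3 of 4 members beside 19.4% of genes. Without mitochondrial and ribosomal genes *Esrrb* (0.88) and *Sall4* (0.76) were no longer past 2-fold there. Markers of other types also differed between the samples in endothelial cells. With and without BMP4 these cells held 15.6 and 314 CPM of the pluripotency markers, of which 11.8 was *Tdh* and 253 *Dppa5a*. They held 97.0 and 34.4 CPM of the primitive endoderm markers. They held 237 and 102 of the placental and 103 and 53.0 of the fibroblast markers. The part of these markers in the endothelial values was not tested. In ParE *Jdp2* was 4.94-fold higher, beside 22.7% of genes, and this rests on 6 UMIs in the 142 BMP4- cells. With and without BMP4 it had 20.7 and 5.64 CPM without mitochondrial and ribosomal genes. With types set by 3 of 6 markers it had 20.0 and 5.39 CPM. *Sall4* differed by 0.78 in ParE, and with types set by 3 of 6 markers it had 145 and 63.5 CPM. *Glis1* had 1.30 CPM there against 0 UMIs, which is under the 1.95 CPM that the interval of the 0 allows, so no difference was detectable. *Esrrb* was lower with BMP4 in ParE by a log2 difference of -1.66, beside 5.88% of genes that were lower, and this rests on 22 UMIs in the 142 BMP4- cells. With cell types set by 3 of 6 markers it was -0.57.

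The same *Jdp2* comparison looked otherwise in bulk RNA. In the bulk libraries of day 7 it had 259 FPKM with and 234 without BMP4 (log2 difference 0.15), against 3.20 over the single cells. After the median gap of 0.54 over 12163 genes was taken off, the gap for *Jdp2* was 2.51, and 0.765% of genes had one as large. Across these genes the bulk and single-cell differences had a Pearson r of 0.628 and a Spearman rho of 0.509, and genes are not independent replicates. The gaps of *Sall4*, *Esrrb* and *Glis1* were ones that 31.4%, 82.3% and 22.4% of genes reached. The cause of the gap was not tested.

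Shares of cells with a UMI were compared after each cell was thinned to 4000 UMIs, which left out 0 cells. *Jdp2* was seen in 23.0% of BMP4+ and 3.06% of BMP4- cells, *Sall4* in 16.3% and 11.1%, *Esrrb* in 6.59% and 4.96% and *Glis1* in 0.635% and 0.173%. Without thinning the shares were 53.7% and 9.30% for *Jdp2*, 46.0% and 30.7% for *Sall4*, 23.1% and 16.5% for *Esrrb* and 3.26% and 0.714% for *Glis1*. All 4 shares were higher in the BMP4+ sample by either measure, with mitochondrial and ribosomal UMIs counted in the depth. For *Esrrb* that direction turned in CPM without those genes.

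By cell type, *Sall4* was seen after thinning in 41.1% of BMP4+ and 29.6% of BMP4- ParE cells, *Jdp2* in 31.05% of BMP4+ and 3.45% of BMP4- intermediate cells, and *Esrrb* in 12.5% of pluripotent cells. No cell type here is known to lack the delivered genes. The lowest share over types of a sample was 0.675% for *Esrrb* (BMP4+ ParE, median 23772.5 UMIs) and 1.26% for *Jdp2* (pluripotent cells, median 15444 UMIs). It was 4.16% for *Jdp2* in BMP4+ cells (placenta-like, median 28906 UMIs), 2.898% for *Esrrb* in BMP4- cells (intermediate, median 11892) and 8.91% and 5.72% for *Sall4* in BMP4+ intermediate and BMP4- endothelial cells (medians 19594 and 15083). The part of free RNA in the droplets in these shares was not tested. The classes richest in *Jdp2*, BMP4+ intermediate cells, were not the deepest of their sample, with a median of 19594 UMIs against 28906 in placenta-like cells.

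Cells with many UMIs of a factor were counted without thinning, so the deeper BMP4+ sample (median 21205 UMIs, against 12738) has the advantage. In the BMP4+ sample 465 cells had 10 or more *Jdp2* UMIs, 408 of them intermediate cells, and 174 cells had 10 or more *Sall4* UMIs, 158 of them ParE. *Esrrb* reached 10 UMIs in 17 BMP4+ cells, and 0 BMP4- cells reached that number for any of the 3 genes. The highest number in one cell was 42 with and 7 without BMP4 for *Jdp2*, 25 and 4 for *Esrrb* and 24 and 8 for *Sall4*.

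Co-detection was read within a class, after thinning. The intermediate and endothelial classes held markers of several types, and the part of such mixture in co-detection was not tested. Of 608 BMP4+ intermediate cells with an *Esrrb* UMI, 49.8% (45.8 to 53.9) had a *Jdp2* UMI, against 29.3% (28.2 to 30.4) of 6517 cells without one. Of 635 such cells with a *Sall4* UMI, 42.4% (38.5 to 46.3) had *Jdp2*, against 29.9% (28.8 to 31.1) of the others. In BMP4+ endothelial cells *Jdp2* was seen in 35.0% (26.5 to 44.4) of cells with and 16.8% (14.8 to 18.9) of cells without *Esrrb*. In BMP4+ ParE *Jdp2* was seen in 3.70% of cells with and 5.22% of cells without *Sall4*. *Jdp2* thus went with *Esrrb* in the intermediate and endothelial classes beyond counting error. In BMP4- intermediate cells the shares were 5.56% and 3.38%, with overlapping intervals. Intervals also overlapped for other pairs. *Sall4* was seen in 11.2% (8.79 to 14.0) of BMP4+ intermediate cells with and 8.70% (8.03 to 9.41) without *Esrrb*. In BMP4+ endothelial cells *Jdp2* was seen in 25.6% (19.3 to 32.7) with and 17.2% (15.2 to 19.4) without *Sall4*.

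Few cells had UMIs of the whole set at this depth. After thinning, 60.4% of BMP4+ and 81.9% of BMP4- cells had no UMI of any of the 4 genes. *Jdp2*, *Esrrb* and *Sall4* were seen together in 52 of 11335 BMP4+ cells (0.459%), 40 of them intermediate and 12 endothelial, and in 2 of 8685 BMP4- cells (0.0230%). All 4 genes were seen together in 1 BMP4+ cell and in 0 BMP4- cells. A factor without a UMI in 4000 may still be expressed, so these are shares of cells with a UMI, and for *Glis1* they count only what its row holds.

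Genes of the same pathways were counted beside the members. Of 10 pluripotency partners of *Esrrb* and *Sall4* (*Pou5f1*, *Sox2*, *Nanog*, *Zfp42*, *Tfcp2l1*, *Nr0b1*, *Dppa5a*, *Tdgf1*, *Fgf4*, *Utf1*), 3 of 7 tested were past 2-fold lower with BMP4 in JGES at day 1, 9 of 9 at day 3, 10 of 10 at day 5 and 10 of 10 at day 7. Of all tested genes, 5.72%, 8.99%, 13.2% and 13.8% were lower at these days. Their median log2 difference at day 7 was -3.90, while that of all tested genes was -0.14. *Nanog*, a core factor of the naive state, had 1.82 FPKM with and 60.5 without BMP4. *Dppa5a* had 19.2 and 527, and *Sox2*, the partner of OCT4 on DNA, had 14.5 and 165. *Esrrb* itself is a gene of this network and stood at -0.42 in the same comparison. RNA of its delivered copy, where it was mapped, shares that row. Between JGES and JGE without BMP4, 10 of 10 were higher, with a median of 5.56, beside 20.1% of all tested genes. Only 2 of the 10 reached 1 FPKM in a JGE library with or without BMP4, so most were tested through their JGES values.

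In cells with SALL4 alone these partners stayed low. At day 5, 2 of 3 tested were past 2-fold higher in SALL4-delN12, namely *Fgf4*, a growth factor gene of the network, at 2.09 against 0.04 FPKM and *Tfcp2l1*, a factor of naive cells, at 3.23 against 0.12. Of all tested genes 4.67% were higher at day 5, 6.09% at day 9 and 6.55% at day 11. At day 9, 3 were tested, of which *Dppa5a* (2.96 and 0.08) and *Fgf4* (1.42 and 0.17) were higher and *Sox2* (0.08 and 1.43) was lower, beside 5.75% of genes lower. At day 11, 5 were tested and 3 were past 2-fold, 1 of them lower beside 6.58% of genes. *Dppa5a* had 4.84 FPKM against a value listed at 0, *Pou5f1* had 2.58 against 0.16 and *Sox2* 0.18 against 1.73. All of these values were below the 21.0 FPKM of *Esrrb* at day 5. Each partner named here reached the 1 FPKM filter only in the library where it was higher. Being tested therefore nearly fixed the call, and the counts are not read as a shift of the list.

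The NuRD subunits, partners of the N-terminus of SALL4, were mostly within 2-fold. Of 12 subunit genes, 0 were past 2-fold between the SALL4 forms at any of the 4 days, with medians of -0.20, -0.02, 0.02 and 0.17, beside 9.81%, 9.86%, 11.8% and 13.1% of all tested genes past 2-fold in either direction. Also 0 were at days 1, 3 and 7 of JGES with against without BMP4 (1 was lower at day 5), when 9.48%, 15.8% and 24.1% of genes were past 2-fold and 13.2% lower at day 5. *Chd4*, the remodelling ATPase of the complex, had 87.8 FPKM with and 90.3 without BMP4 at day 7 of JGES. In single cells 3 of 12 were higher over all cells, *Chd4* among them at 405 against 140 CPM (log2 difference 1.52, where the median of all genes was 0.47). *Mbd2*, a reader of methylated DNA, had the largest fold of these (79.4 against 15.2 CPM), and *Rbbp7* was the third. Of all tested genes 23.8% were higher, about the same share as 3 of 12. By type, 2 of 12 were higher in intermediate cells, 5 in endothelial cells and 5 in ParE, beside 23.6%, 19.4% and 22.7% of genes, with medians of 0.53, 0.52 and 0.64. Without mitochondrial and ribosomal genes the counts were 2 over all cells, 1 in intermediate cells, 3 in endothelial cells and 2 in ParE, beside 13.8%, 14.5%, 11.4% and 13.7% of the other genes.

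Of the paralogs of the members (AP-1 partners of *Jdp2* and the *Glis*, *Esrr* and *Sall* families), 1 of 8 was past 2-fold at day 7 of JGES with against without BMP4, beside 24.1% of all tested genes (13.8% lower). This was *Batf*, an AP-1 factor of lymphoid cells, at 0.78 against 3.37 FPKM. At the earlier days 1 of 7 was lower at day 1, 3 of 8 at day 3 and 2 of 7 at day 5. Of all tested genes 5.72%, 8.99% and 13.2% were lower at these days. A further 1 of 8 was higher at day 3, when 15.8% of genes were past 2-fold in either direction. Between the SALL4 forms 1 of 6 tested was past 2-fold higher at day 1, 1 of 8 at days 5 and 9 and 2 of 8 at day 11, when 1 was lower, beside 4.18%, 4.67%, 6.09% and 6.55% of genes higher and 6.58% lower at day 11. *Atf3*, a stress-induced relative of *Jdp2*, was higher in SALL4-delN12 at all 4 days, with 8.45, 5.84, 6.53 and 13.3 FPKM against 3.61, 2.26, 1.81 and 2.85. At day 11 *Batf3* was also higher (3.48 and 0.89) and *Glis3* lower (1.25 and 3.53). *Atf3* was past 2-fold between the forms at each day, and *Jdp2* at none.

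The genes with the pattern most like each factor over the 17 libraries of the time courses were named by Pearson r of log2(FPKM + 1), and the choice depends on that measure. For *Jdp2* they were *Mid2* (0.988), *Med25* (0.986) and *Fam179b* (0.985) of 10648 genes compared. For *Esrrb* they were *Dot1l* (0.972), *Zmynd8* (0.971) and *Rab11fip4* (0.965). For *Sall4* they were *Apoo* (0.856), *Timm23* (0.837) and *Mpg* (0.830), and for *Glis1*, whose values are near 0, *Klhl5* (0.836), *Il11* (0.822) and *Ctif* (0.822). By Spearman correlation *Mid2* and *Fam179b* ranked 91 and 49 for *Jdp2* and *Dot1l* ranked 62 for *Esrrb*. The libraries fall into a JGES set and a SALL4 set, which differ in the delivered genes, and an r over all 17 includes that separation. Within the 9 JGES libraries, which share the MEF origin and, for both arms, day 0, *Jdp2* and *Esrrb* had an r of 0.961, *Esrrb* and *Sall4* 0.903, *Jdp2* and *Sall4* 0.796, and *Glis1* between -0.37 and -0.09 with the others. These correlations describe 1 library per condition and carry no test.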

How the data were processed

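Bulk RNA-seq, ATAC-seq, CUT&Tag and single-cell RNA-seq of the groups above were used as deposited. According to the submitters' processing notes and the study's methods, the authors trimmed bulk reads with Trim Galore 0.6.4, mapped them to mm10 with HISAT2 2.2.1 and deposited FPKM from StringTie 2.2.1. The authors deposited UMI counts per cell from STAR with GENCODE vM21 after filtering cells with Scanpy, together with a cell type for each cell. Peak lists with a score per peak were deposited by the authors from Bowtie2 2.4.5, SAMtools 1.16.1 and MACS 1.4.2, with CUT&Tag replicates merged. Of 30769 columns of cells, 10749 belong to other work and were not used, and 2 barcodes occur in both samples. Doublets were not called here, and leaving out the 6% of cells with the most UMIs stood in for it.

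Differences of log2(FPKM + 1) were computed over genes with at least 1 FPKM in either library, and 2-fold or more was counted. UMIs were summed per sample and cell type, over genes with at least 1 CPM in either sample, and compared as log2(CPM + 1). Cells were thinned to 4000 UMIs with a fixed seed. A start site was widened by 2 kb to each side. The named genes were the 4 factors, *Pou5f1*, the 3 genes most like each factor by Pearson r (among genes with at least 5 FPKM in 3 or more libraries), paralogs past 2-fold in JGES day 7 or between the SALL4 forms, and up to 4 examples of the pluripotency and NuRD lists. The members, lists and rules were chosen with earlier results of these data known. Nothing in the labels says whether libraries came from separate cultures. Python 3.11.15, numpy 2.4.6, pandas 2.3.3, scipy 1.17.1 and matplotlib 3.10.9 were used, and the scripts were tested on simulated data.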

Additional observations from a re-analysis of the deposited data

Results flagged for a closer look

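*Sall4* moved in opposite directions with BMP4 in 2 factor sets of day 7. Its log2 difference (BMP4+ minus BMP4-) was -0.52 in JGES, which received the gene, and 1.23 in JGE, which did not (6.23 against 2.09 FPKM). JGESO, which also received it, had 213 FPKM with and 174 without BMP4. JGEO, which did not, had 30.3 and 28.9 FPKM. The difference between the sets was not tested, since each condition has 1 library. RNA of the vector, where it was mapped, shares the row with that of the cells' own gene in sets that received *Sall4*.

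*Esrrb* also changed direction between cell types of the single-cell samples. With BMP4 it differed by 1.53 on the log2 scale in intermediate cells and by 1.162 in endothelial cells, and by -1.66 in ParE, where the BMP4- class of 142 cells held 22 of its UMIs. With cell types set by 3 of 6 markers the ParE value was -0.57, under 2-fold. The difference between cell types was not tested. That BMP4- class also held 898 CPM of the pluripotency markers (809 from *Dppa5a*), against 188 in the BMP4+ class (165 from *Tdh*). The sums rest mostly on different genes, and the part of these markers in the result was not tested.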

How the results depend on the processing

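No analysis paired by replicate was possible, because each condition has 1 library and groups share no replicates with a number. Days are conditions of the study and not replicates. Differences between arms of the same day are given as values. A fit that pairs libraries by day and pools the days was possible but was not run. No result changed direction past 2-fold under another setting. With a pseudocount of 0.1 the difference of *Glis1* between JGES and JGE without BMP4 went from -0.16 to -1.13, and 11 values, all of *Glis1*, came past 2-fold while 97 kept their side. Scaling the libraries to one median ratio moved them by up to 0.18 on the log2 scale and kept 106 values on their side of the 2-fold mark. *Sall4* at day 5 against day 0 without BMP4 crossed it to -1.14, and *Jdp2* in JGESO against JGES with BMP4 to 0.95. Under the mark, *Esrrb* with against without BMP4 at day 5 of JGES turned from -0.15 to 0.04. In single cells, leaving out mitochondrial and ribosomal genes brought *Esrrb* to 0.88 and *Sall4* to 0.76 in endothelial cells, under 2-fold, and turned *Esrrb* over all cells (24.6 against 26.4 CPM with and without BMP4) and *Sall4* in intermediate cells (35.6 against 41.8 CPM). With cell types set by 3 of 6 markers, ParE gave -0.57 for *Esrrb* and 1.18 for *Sall4*, and placenta-like BMP4+ cells gave 80.5 CPM of *Jdp2* (17.1 by the deposited types) and 28.9 of *Sall4* (48.0). Of the 12 correlations of the most alike genes, 8 moved by 0.01 or more as Spearman correlations and 5 with a pseudocount of 0.1. Without the 6% of cells with the most UMIs, all 16 values kept their side. A filter at 5 FPKM lowered the number of genes past 2-fold by more than 1.5 times in 11 of 11 comparisons, from 3691 to 2101 for JGES with against without BMP4 at day 7. Counting only peaks with a score of 100 or more moved coding cover in 19 and start sites in 12 of 52 values. The second copy of the JGES libraries of day 7 had FPKM of 0.975 and 0.978 times the first and changed no side. One library per condition and unknown read depth limit every bulk difference.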
